A study of Rattus norvegicus with 2 samples.

Results

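CFTR high expresser cells (CHEs) are scattered epithelial cells of the upper small intestine that carry far more of the chloride and bicarbonate channel Cftr than their neighbours. Here they were selected on measured values, as retained barcodes with at least 1 unique molecular identifier (UMI, which counts each captured transcript once) of Best4, at least 1 of Otop2 and at least 2 of Cftr. By this rule 70 of 8218 retained barcodes were CHEs, 6 of 5988 in rat 1 and 64 of 2230 in rat 2. Both rats belong to a single untreated group: Sprague Dawley males, an outbred stock, aged 6 to 8 weeks and weighing 180 to 200 g, with unmodified genomes as far as the labels say. They had been fasted overnight, and the epithelium of the proximal jejunum was released with EDTA and dispase and run on a 10x Genomics 3′ single-cell kit, 1 library per rat. To be retained, a barcode needed over 5000 UMIs, a gene number between 200 and 5800, and a mitochondrial share of its UMIs no higher than 40%, which left 8218 of 20285 barcodes. CHEs were compared with all other retained epithelial cells, meaning barcodes with an Epcam UMI and no Ptprc UMI, of which there were 5779 in rat 1 and 1525 in rat 2.

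Cftr conducts chloride and bicarbonate across the apical membrane and sets fluid and pH at the gut surface. Best4 is a bestrophin, an anion channel that passes bicarbonate, and Otop2 is a proton channel of the otopetrin family. Cells that carry both have been described in the human intestine, where they also produce the peptides guanylin and uroguanylin, which act on the receptor guanylate cyclase C of neighbouring cells to raise cGMP and open Cftr. Intestinal cells choose between absorptive and secretory fates through Notch signalling, in which the transcription factor Atoh1 marks the secretory side and Hes1 the Notch-active side.

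The members carried many more Cftr transcripts than the rule asked for. In rat 1 the 6 members had 12 to 36 Cftr UMIs with a median of 18, and in rat 2 the 64 members had 14 to 86 with a median of 36.5. Best4 ranged from 1 to 8 UMIs in rat 1 (median 2) and from 1 to 12 in rat 2 (median 4), and Otop2 from 1 to 7 (median 2.5) and from 1 to 16 (median 5.5). Since these 3 genes chose the members, their levels are a description and entered no test. Among the other epithelial cells a Cftr UMI was common, in 39.5% of cells of rat 1 and 42.0% of rat 2, with at most 10 and 56 UMIs in a cell. Best4 by contrast had a UMI in 0 other epithelial cells of rat 1 and in 10 of rat 2 (0.656%), and Otop2 in 4 (0.0692%) and 6 (0.393%).

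At the edge of the rule, 1 member of rat 1 and 9 of rat 2 had a single Best4 UMI, and 1 and 5 had a single Otop2 UMI. Just outside it lay 3 barcodes of rat 1 and 17 of rat 2 with at least 2 Cftr UMIs and only 1 of Best4 and Otop2. Their summed uroguanylin (Guca2b) level was 87754 and 68916 UMIs per 1000000 UMIs (CPM), against 58320 and 138029 CPM in the members. A further 4 barcodes of rat 2 had neither Best4 nor Otop2 but at least 12 Cftr UMIs, with Guca2b at 45268 CPM. No retained barcode had both genes and fewer than 2 Cftr UMIs. Barcodes just outside the rule that had an Epcam UMI and no Ptprc UMI were counted with the other epithelial cells. In rat 2 the 17 barcodes held 7216 UMIs of Stfa3, 1565 of Reg1a, 21 of Notch2 and 18 of Meis1. In the comparison sum of rat 2, 1 UMI weighed 0.0322 CPM. The comparison levels of such genes in rat 2 given below therefore include CHE-like barcodes. Under a looser member rule, which took the 17 as members, 178 genes passed the main test described below.

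All 70 members had an Epcam UMI, with at least 30 in rat 1 and at least 8 in rat 2. Ptprc, which encodes the leukocyte antigen Cd45, had a UMI in 0 members of rat 1 and in 5 of rat 2, at most 5 in a cell. The median member had 11623.5 UMIs in rat 1 and 13918 in rat 2, against 12190 and 19348 in the other epithelial cells. Mitochondrial genes took a median of 10.0% and 5.07% of the members' UMIs, against 13.1% and 22.5% in the other epithelial cells. The lower mitochondrial share of CHEs in rat 2 runs beside every result from that rat, and its part in them was not tested. The libraries shared 28 barcodes, of which 4 were retained and 0 were members. Scrublet called 116 retained barcodes of rat 1 (1.94%) and 5 of rat 2 (0.224%) as doublets, and 0 members were among them. Called doublets were left in.

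CHEs made up 0.104% of the epithelial cells in rat 1 (exact Clopper-Pearson 95% interval 0.0381% to 0.226%) and 4.03% in rat 2 (3.12% to 5.11%). The intervals do not overlap, but they cover counting error only. With 1 library per rat, animal, dissociation and library cannot be told apart, and the libraries also differ in the Cell Ranger version of their headers (3.1.0 and 5.0.1). Summed over the members, CHEs gave 78601 UMIs in rat 1 and 941035 UMIs in rat 2, so that 1 UMI weighed 12.7 CPM in rat 1 and 1.06 CPM in rat 2. Low values in rat 1 are therefore coarse.

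**Figure D1:**
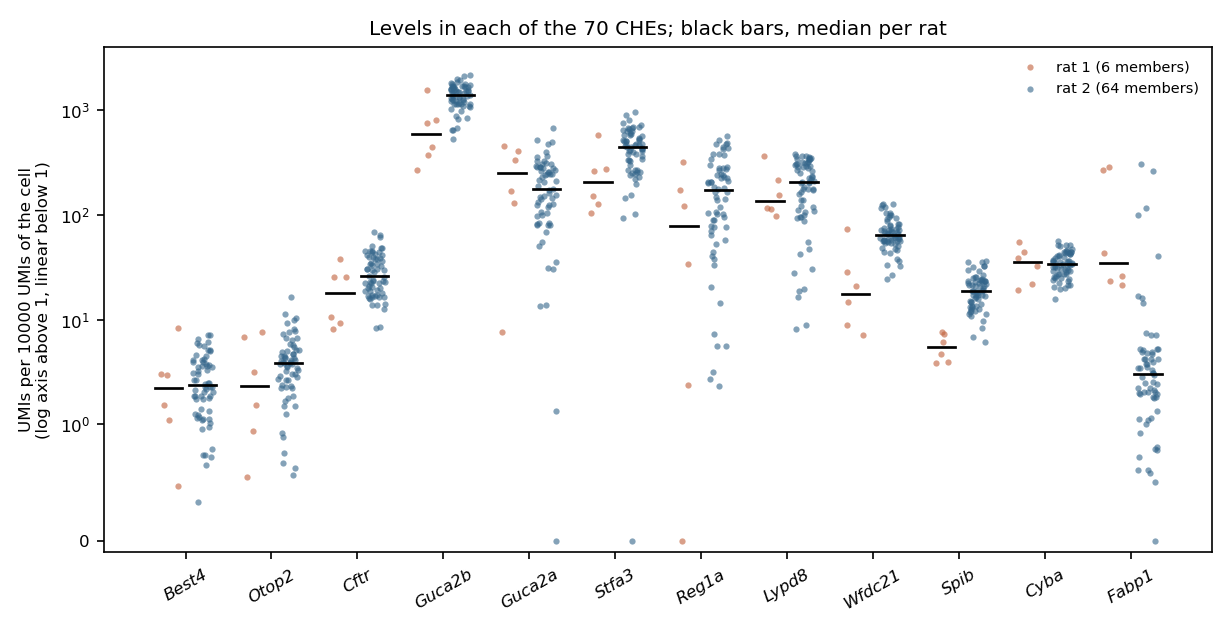
Levels of 12 genes in each CHE, as UMIs per 10000 UMIs of the cell on an axis that is logarithmic above 1 and linear below 1, with rat 1 in orange, rat 2 in blue and black bars at the median of each rat. Guca2b has the highest median of the genes shown in both rats, at 597 and 1408, and Cyba stays between 15.6 and 56.2, while Reg1a and Fabp1 spread over more than a factor of 100 in rat 2.

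Across 10528 genes, 223 differed between CHEs and the other epithelial cells (2.12%; edgeR, adjusted p under 0.05), with 162 higher (1.54%) and 61 lower (0.579%), and 204 of them moved the same way in both rats. The CHE and comparison sums come from the same animals, and with the rat as a block 1065 genes passed (10.1%), 467 higher (4.44%) and 598 lower (5.68%), all 223 among them. Most calls rested on rat 2, which held 64 of the 70 members. Without the CHE sum of rat 2, 11 genes passed, all higher, and without that of rat 1, 193 passed, 132 of them among the 223. Leaving out the comparison sum of rat 2 gave 381 genes. At a mitochondrial limit of 20% the count was 77, with 70 of them among the 223. For the gene lists below, the counts with the block are given beside those without it where they differ. Each list count is to be read against the shares over all genes tested. These were 1.54% higher and 0.579% lower without the block, and 4.44% and 5.68% with it. A few calls in a short list are not a result about the list.

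**Figure D2:**
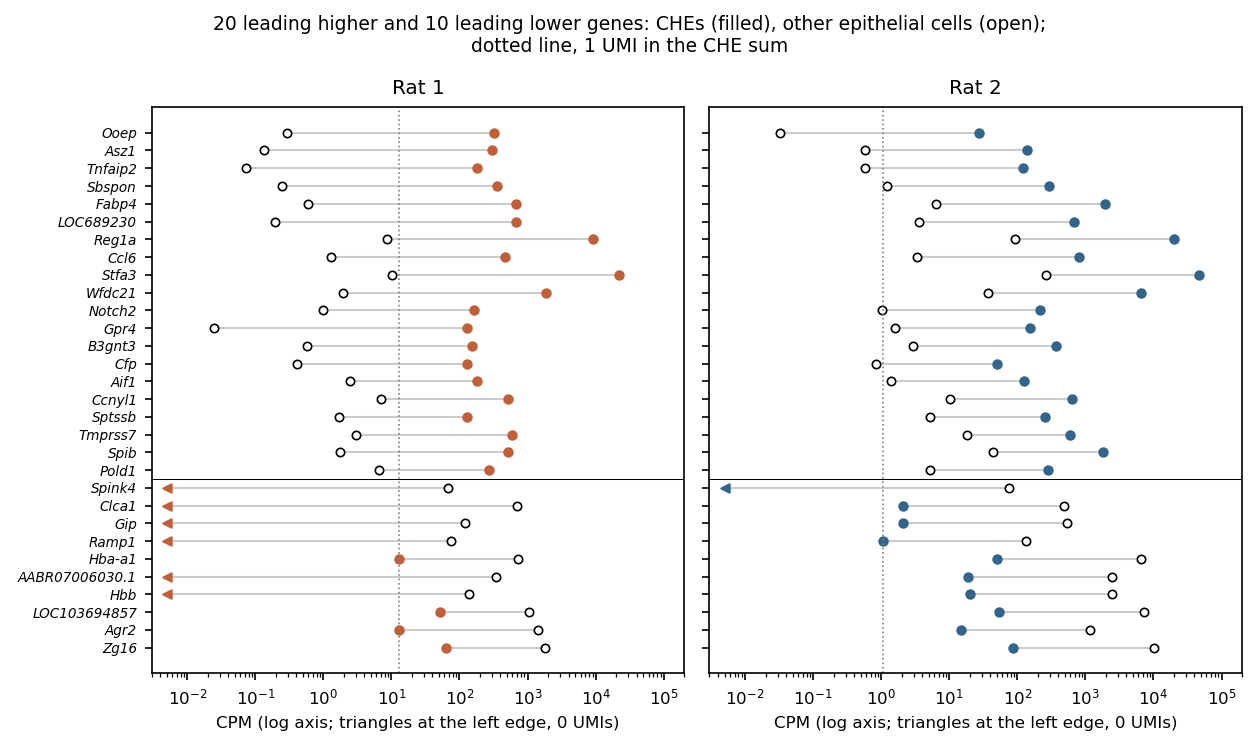
CPM of the 20 leading higher and 10 leading lower genes in CHEs (filled circles) and other epithelial cells (open circles), on a log axis for each rat, with triangles at the left edge for 0 UMIs and a dotted line at the weight of 1 UMI in the CHE sum. The filled circles of the upper 20 genes lie to the right of the open circles in both rats, as the choice of genes fixes, and 6 of the lower 10 had 0 UMIs in the CHEs of rat 1.

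The most abundant transcript of CHEs was a hormone. Guca2b, which encodes uroguanylin, took 268 to 1558 of every 10000 UMIs in the members of rat 1 (median 597) and 535 to 2184 in rat 2 (median 1408). In CPM it stood at 58320 and 138029 in CHEs and at 1902 and 2301 in the other epithelial cells. The difference missed the threshold (log2 fold change 5.55 ± 1.67 SE, adjusted p = 0.0942) and passed with the rat as a block (adjusted p = 0.000505). Against goblet-marker cells the log2 fold change was 6.97 ± 1.11 (adjusted p = 0.00541) and against enterocyte-marker cells 4.99 ± 1.01 (adjusted p = 0.0112).

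Guca2a, which encodes guanylin, stood at 21145 and 20029 CPM in CHEs and at 720 and 1387 CPM in the other epithelial cells (log2 fold change 4.15 ± 1.21, adjusted p = 0.0795, and 3.35e-05 with the block). Goblet-marker cells also carried it, at 7002 and 17954 CPM, and CHEs did not pass the test against them (0.44 ± 1.13, adjusted p = 0.889). It varied between members, from 0 to 673 per 10000 UMIs in rat 2 with a median of 175. Gucy2c, the receptor for both peptides, was at 191 and 260 CPM in CHEs and 104 and 155 CPM in the other cells (log2 fold change 0.76 ± 0.68, adjusted p = 0.649), and was higher than in tuft-marker cells (4.57 ± 0.62, adjusted p = 0.00742) and goblet-marker cells (3.08 ± 0.50, adjusted p = 0.00616). Of 10 tested genes of guanylin and cGMP signalling, 0 passed without the block (median log2 fold change -0.92, or 0.03 with the gene at 0 UMIs set to its limit, against -0.20 and -0.01 over all genes tested), while the block gave 2 higher, both hormones, and 4 lower. The lower genes were Prkg2, a cGMP-dependent kinase, at 76.3 and 12.8 CPM in CHEs and 111 and 166 CPM in the other cells, the cGMP phosphodiesterases Pde5a and Pde9a, and the scaffold Pdzk1. Pde9a was at 63.6 and 4.25 CPM against 52.5 and 71.0 CPM, so it was lower in rat 2 alone. In rat 1, 3 of 6 members had a Pde9a UMI, at most 3 in a cell, too few to give a direction.

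Several of the leading higher genes encode secreted proteins or protease inhibitors. Stfa3, a cystatin of the stefin A family, stood at 22086 and 46036 CPM in CHEs and at 10.1 and 266 CPM in the other epithelial cells (log2 fold change 7.80 ± 1.79, adjusted p = 0.0203). It was found in 6 of 6 members of rat 1 and 63 of 64 of rat 2, with medians of 206 and 442 per 10000 UMIs. Stefin A genes form a family of close copies, so the split of UMIs among them is uncertain. LOC689230 rose as well, at 674 and 675 CPM against 0.195 and 3.54 CPM (8.30 ± 1.24). Wfdc21, a small protein of the whey acidic protein fold, had a UMI in all 70 members and stood at 1883 and 6603 CPM against 1.93 and 37.2 CPM (7.68 ± 1.46, adjusted p = 0.00447).

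Reg1a, a secreted C-type lectin, stood at 9198 and 20360 CPM against 8.66 and 91.2 CPM in the other cells (log2 fold change 8.09 ± 1.56, adjusted p = 0.00491). The members differed widely in it, from 0 to 320 per 10000 UMIs in rat 1 and from 2.33 to 561 in rat 2. Its relatives, which were looked up after their values were seen, did not move together. Reg3b, an antibacterial lectin, stood at 12544 and 42804 CPM against 797 and 1618 CPM (4.52 ± 1.36, adjusted p = 0.0941, and 0.000154 with the block). Reg3g, also antibacterial, fell, with 0 and 37 UMIs in CHEs (39.3 CPM in rat 2) against 317 and 671 CPM (-4.15 ± 0.94, adjusted p = 0.0186). Reg genes are similar in sequence and their UMIs may be split between them.

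Further genes that rose include the fatty acid carrier Fabp4 (687 and 1938 CPM against 0.586 and 6.44 CPM), the chemokine Ccl6 (471 and 815 against 1.31 and 3.35 CPM) and B3gnt3, which extends mucin-type O-glycans (153 and 376 against 0.574 and 2.90 CPM). Gpr4, a receptor that senses extracellular protons, had a UMI in 6 of 6 and 59 of 64 members and stood at 127 and 152 CPM against 0.0244 and 1.58 CPM (log2 fold change 7.35 ± 1.24, adjusted p = 0.00147). Sbspon, Tnfaip2, Ccnyl1, Sptssb and the transmembrane protease Tmprss7 rose too, by 5.64 to 8.71 on the log2 scale. Ooep had the largest log2 fold change, 9.49 ± 1.16, yet it was in 4 of 6 members of rat 1 and 7 of 64 of rat 2, at 318 and 27.6 CPM.

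Some of the leading genes are best known from myeloid cells. Aif1, an actin-binding protein, stood at 178 and 124 CPM against 2.43 and 1.39 CPM (log2 fold change 6.22 ± 0.77), and Cfp, the complement factor properdin, at 127 and 49.9 CPM against 0.415 and 0.838 CPM (6.85 ± 0.88). These genes prompted a look, after the values were seen, at the subunits of the phagocyte NADPH oxidase. Cyba, its membrane subunit p22phox, which also serves other oxidases, rose to 3206 and 3410 CPM against 154 and 170 CPM (4.27 ± 0.93, adjusted p = 0.0144) and was in all 70 members. The GTPase Rac2 (382 and 442 against 3.04 and 32.6 CPM, 4.35 ± 0.96) and Ncf4, the cytosolic subunit p40phox (25.4 and 141 against 0.0122 and 0.548 CPM, 8.52 ± 1.29), rose with it. The catalytic subunit Cybb had 0 UMIs in CHEs of either rat, its epithelial relative Nox1 also 0, and Ncf1 1 UMI. Of other myeloid genes looked up, Itgax, Cd68, Cd163, Csf1r, Itgam, S100a8, S100a9 and Mpo had 0 UMIs in CHEs of both rats. The genes at 0, Cybb and Nox1 included, stood at 1.40 CPM or less in the other epithelial cells too, so their counts of 0 set no bound. Tyrobp, Laptm5 and Lyz2 were looked up as well and are not among the genes at 0. Lyz2, also a Paneth marker, had 1 UMI in the CHEs of rat 1.

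Leukocyte markers gave no call without the block. Of 7 listed, Ptprc was used to choose the comparison cells, 5 were tested and 0 passed under edgeR, while the block gave Ccl5 and Coro1a as higher and Cd74 as lower. The list summed to 0.0560% of UMIs in the CHEs of rat 1 and 0.0429% in rat 2, against 0.125% and 0.0647% in enterocyte-marker cells, 0.0748% and 0.0550% in all other epithelial cells, 0.0169% and 0.0315% in tuft-marker cells and 0.00984% and 0.00596% in goblet-marker cells. In both rats the summed level in CHEs lay below enterocyte-marker and all other epithelial cells and above tuft-marker and goblet-marker cells. The sums do not measure leukocyte content, since they include Cd74, which was common in enterocyte-marker cells, and comparison cells were chosen without Ptprc. At equal depth Cd74 was in 69.0% and 56.3% of enterocyte-marker cells, Ccl5 in 7.84% and 9.64%, and Coro1a in 1.48% and 2.96%. Of the members, Cd74 was in 4 of 6 and 10 of 64, Ccl5 in 0 and 9, and Coro1a in 0 and 11. Leukocyte content itself was not tested. One member of rat 2 reached 1.74%, while the median member of rat 2 was at 0.00233%.

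Notch receptors and targets were among the groups with higher genes. Notch2, a receptor, stood at 165 and 217 CPM in CHEs and at 1.00 and 1.03 CPM in the other epithelial cells (log2 fold change 7.55 ± 0.84, adjusted p = 6.4e-05). Nrarp, a target gene that feeds back on the Notch complex, was at 229 and 555 CPM against 18.4 and 3.93 CPM (5.30 ± 0.90, adjusted p = 0.00158). Both were also higher than in tuft-marker, goblet-marker and enterocyte-marker cells. Of 15 tested genes of the list these 2 rose and 0 fell, with a median log2 fold change of 0.92, and the block added Notch1 and Hes1.

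Notch1 differed between the rats, with 1 UMI (12.7 CPM) among the members of rat 1 but 82.9 CPM in rat 2, against 13.8 and 3.48 CPM (log2 fold change 2.91 ± 0.81, adjusted p = 0.0676, and 2.87e-05 with the block). In rat 1 alone the difference had the opposite sign. Hes1, the Notch target that represses Atoh1, was at 153 and 114 CPM against 49.4 and 24.8 CPM (1.79 ± 0.65, adjusted p = 0.195, and 0.00331 with the block). In cycling-marker cells Hes1 stood at 83.9 and 125 CPM, so CHEs were not alone in carrying it. Of 4 tested Notch ligands 0 passed with or without the block. Dll1 stood at 0 and 28.7 CPM in CHEs and 6.12 and 11.2 CPM in the other cells.

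Shares of cells were compared at equal depth. With every cell thinned to 5000 UMIs, Notch2 had a UMI in 4 of 6 members (66.7%, exact interval 22.3% to 95.7%) and 42 of 64 (65.6%, 52.7% to 77.1%), against 0.0330% and 0.191% of enterocyte-marker cells. Unthinned, it was in 5 of 6 and 57 of 64. Nrarp was in 3 of 6 and 58 of 64 thinned members, against 1.19% and 0.573% of enterocyte-marker cells. Hes1 was in 2 of 6 and 21 of 64, against 12.5% and 12.7%. The unthinned medians were 12249.5 and 24091 UMIs in enterocyte-marker cells, more than in CHEs.

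The core of the site bound by Rbpj, the DNA-binding partner of Notch, is TGGGAA. It was searched on both strands in the 250 bases before each gene's start in RefSeq promoters (GRCr8 build). The runs below show it, in capitals, in 3 genes described here, read along the gene's strand.
Hes1, first match (chr11:84213151-84213180): tgaaagttactgTGGGAAagaaagtttggg
Hes1, second match (chr11:84213137-84213166): ggaaagaaagttTGGGAAgtttcacacgag
Best4 (chr5:135858536-135858565): aggacaaaaggaTGGGAAggagggaaagga
Guca2b, reverse strand of the motif (chr5:138534393-138534422): tggcagaccaggTTCCCAcaggctctggtt
The Hes1 matches overlap in their flanks and begin 123 and 109 bases before the gene's start. Guca2b has a second match nearer the far end of its window. The motif was in 18 of 111 genes called higher that had a promoter in the table (16.2%), against 22.1% of all 33469 promoters, and no match lay in the windows of Notch2, Nrarp, Meis1, Spib, Otop2, Cftr or Guca2a. A match is a stretch of letters only, and nothing was measured about binding.

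Among 34 tested transcription factors of secretory and regional identity, 3 were higher, 1 was lower and 30 did not pass (median log2 fold change -0.13). With the block 6 were higher, adding Gfi1b, Id1 and Id2, and 5 were lower, adding Spdef, Hnf4g, Maf and Creb3l3. Over all genes tested, 1.54% were higher and 0.579% lower without the block, and 4.44% and 5.68% with it. Meis1, a homeodomain factor, stood at 89.1 and 92.5 CPM in CHEs and at 0.0611 and 0.805 CPM in the other cells (7.67 ± 1.09, adjusted p = 0.000328). It had 0 UMIs in tuft-marker, EEC-marker and cycling-marker cells of both rats. It was detected in 3 of 6 and 37 of 64 members, and after thinning in 1 of 6 and 20 of 64, against 1 enterocyte-marker cell of rat 1 and 0 of rat 2.

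Prox1, a homeodomain factor of the tuft and enteroendocrine branch, stood at 76.3 and 63.8 CPM against 1.04 and 2.35 CPM (log2 fold change 5.25 ± 0.82, adjusted p = 0.0007). Tuft-marker cells had almost the same level, 71.1 and 67.2 CPM (0.27 ± 0.55, adjusted p = 0.844). Spib, an Ets factor, was at 522 and 1843 CPM against 1.73 and 44.4 CPM (5.60 ± 1.26, adjusted p = 0.017), was in all 70 members, and was at 222 and 1007 CPM in tuft-marker cells (1.26 ± 0.88, adjusted p = 0.46). Neither difference from tuft-marker cells passed the test. Atoh1 had 0 UMIs in the CHEs of both rats, against 17.1 and 29.8 CPM in the other cells (adjusted p = 0.0363) and 275 and 362 CPM in goblet-marker cells. With 3 UMIs as the limit of a count of 0, Atoh1 was at least 9.35-fold lower than in the other cells of rat 2, while rat 1 was too shallow for a bound. Tuft-marker cells had nearly as little, 0 and 1.87 CPM.

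**Figure D3:**
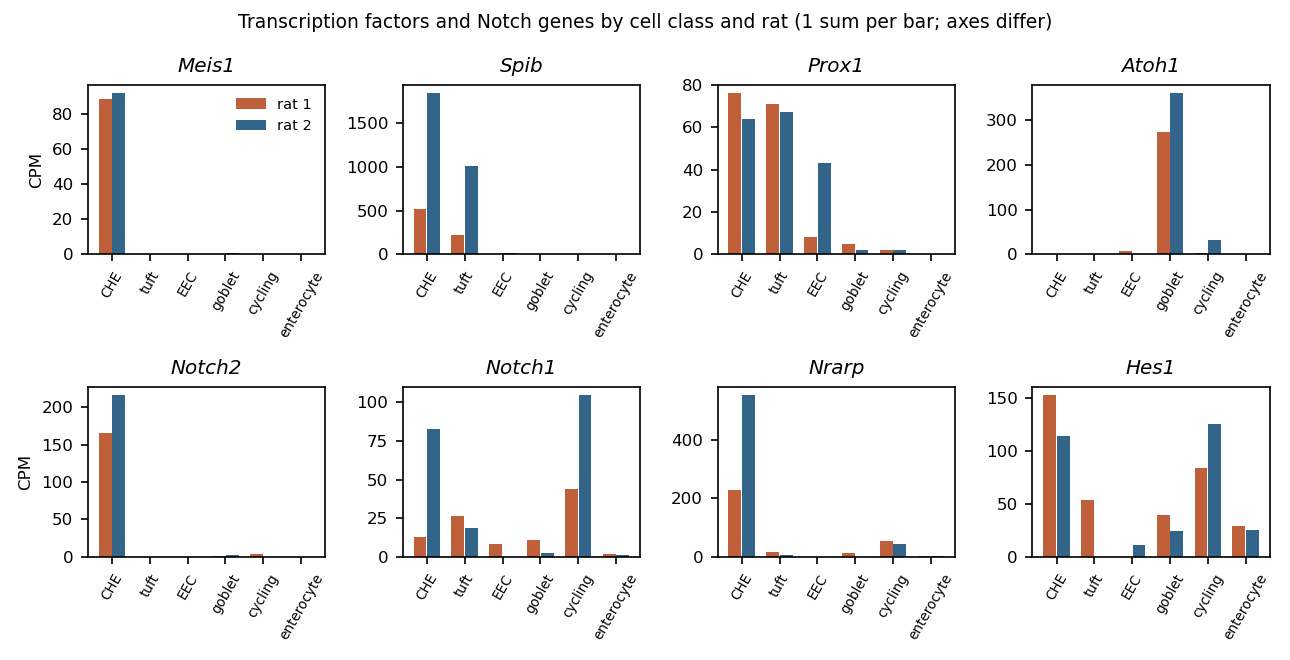
CPM of 8 transcription factors and Notch genes by cell class, with 1 sum per bar, rat 1 in orange and rat 2 in blue, on linear axes from 0 that differ between panels. Meis1 and Notch2 have tall bars in CHEs alone, Prox1 and Spib in CHEs and tuft-marker cells, Atoh1 in goblet-marker cells, and Hes1 and Notch1 in CHEs and cycling-marker cells.

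Genes for ion and pH control moved in both directions. Of 20 tested chloride, bicarbonate and sodium-proton transport genes, Otop3 was higher and Slc9a2 and Slc12a2 were lower (median log2 fold change -1.03, or -0.71 with the gene at 0 set to its limit). Otop3, a second otopetrin proton channel, had 0 UMIs in rat 1 and 16 UMIs (17.0 CPM) in rat 2, so its call (4.98 ± 1.29, adjusted p = 0.0459) rests on rat 2. Slc9a2, a sodium-proton exchanger, had 0 and 11 UMIs in CHEs against 110 and 142 CPM in the other cells (-3.66 ± 0.84, adjusted p = 0.0204). Slc12a2, the cotransporter that loads chloride across the basolateral membrane, had 1 and 0 UMIs in CHEs against 111 and 17.0 CPM (adjusted p = 0.046). It is also a crypt gene, at 321 and 391 CPM in cycling-marker cells. With the block, 2 of the 20 were higher, adding the sulfate transporter Slc26a2, and 6 were lower, including the chloride-bicarbonate exchangers Slc26a3 and Slc26a6 and the sodium-proton exchanger Slc9a3.

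Of 7 tested carbonic anhydrases Car2 fell, with 0 and 20 UMIs in CHEs (21.3 CPM in rat 2) against 93.8 and 263 CPM (-3.46 ± 0.88, adjusted p = 0.0412). Car4, which is bound to the outer membrane, stood at 102 and 209 CPM against 78.5 and 24.6 CPM (1.76 ± 0.71, adjusted p = 0.257, and 0.00781 with the block). Car8 was higher with the block as well. Car7, known from human cells of this kind, had a UMI in 0 members of rat 1 and in 1 of rat 2. Among 17 tested potassium, sodium and water transport genes, the potassium channel Kcnk1 was higher (25.4 and 203 CPM against 13.2 and 16.7 CPM, adjusted p = 0.0407) and Fxyd3, a regulator of ion transport, was lower, with 0 and 3 UMIs. Fxyd3 is also a goblet gene here. After thinning it was in 95.8% of goblet-marker cells of rat 1 and in 2.34% of its enterocyte-marker cells. With the block 1 was higher and 6 were lower, among them the water channels Aqp1, Aqp3, Aqp7 and Aqp8. Of 18 tested proton pump (V-ATPase) subunits, 0 passed under edgeR with or without the block, at a median of 0.23, and the list took a median of 0.201% and 0.183% of a member's UMIs against 0.188% and 0.146% in enterocyte-marker cells. Of the 16 airway ionocyte genes, 14 were in the matrices and 2 had any UMI in CHEs, Hepacam2 and Stap1. Foxi1, the ionocyte regulator, had 0.

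Among 26 tested genes of Cftr regulation and trafficking, 3 were higher and 0 lower, and with the block 3 were higher and 2 lower, Adcy9 and Pdzk1. The shares over all genes tested were 1.54% higher and 0.579% lower, and 4.44% and 5.68% with the block. Stk39, the kinase SPAK that acts on chloride transporters, stood at 331 and 413 CPM against 20.5 and 10.9 CPM (log2 fold change 4.59 ± 0.77, adjusted p = 0.0014). Wnk4, a kinase upstream of it, was at 38.2 and 35.1 CPM (3 and 33 UMIs) against 3.68 and 1.87 CPM (3.74 ± 0.81, adjusted p = 0.0139). Adcy6, an adenylate cyclase, was at 102 and 85.0 CPM against 16.3 and 12.4 CPM (2.65 ± 0.67, adjusted p = 0.0391), and tuft-marker cells had 62.2 and 121 CPM. The median over the list was 0.17.

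Of 14 tested genes described in human BEST4 cells, Spib, Notch2, Meis1, Otop3 and the protease Ctse were higher and 0 were lower (median 3.21), and the block raised the count to 9 with Guca2a, Guca2b, Car4 and Hes1. The list was drawn up with these data known, so its count is no independent support. Ctse stood at 127 and 416 CPM against 2.58 and 20.9 CPM, and goblet-marker cells had 45.9 and 217 CPM (0.92 ± 0.84, adjusted p = 0.604). Lypd8, a surface protein that binds bacteria, was abundant in CHEs, at 15051 and 22076 CPM against 3457 and 4021 CPM, but did not pass with or without the block (2.27 ± 1.12, adjusted p = 0.377). Kcnma1 had 0 UMIs, and Pbxip1, Mt1 and Mt2A did not pass.

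**Figure D4:**
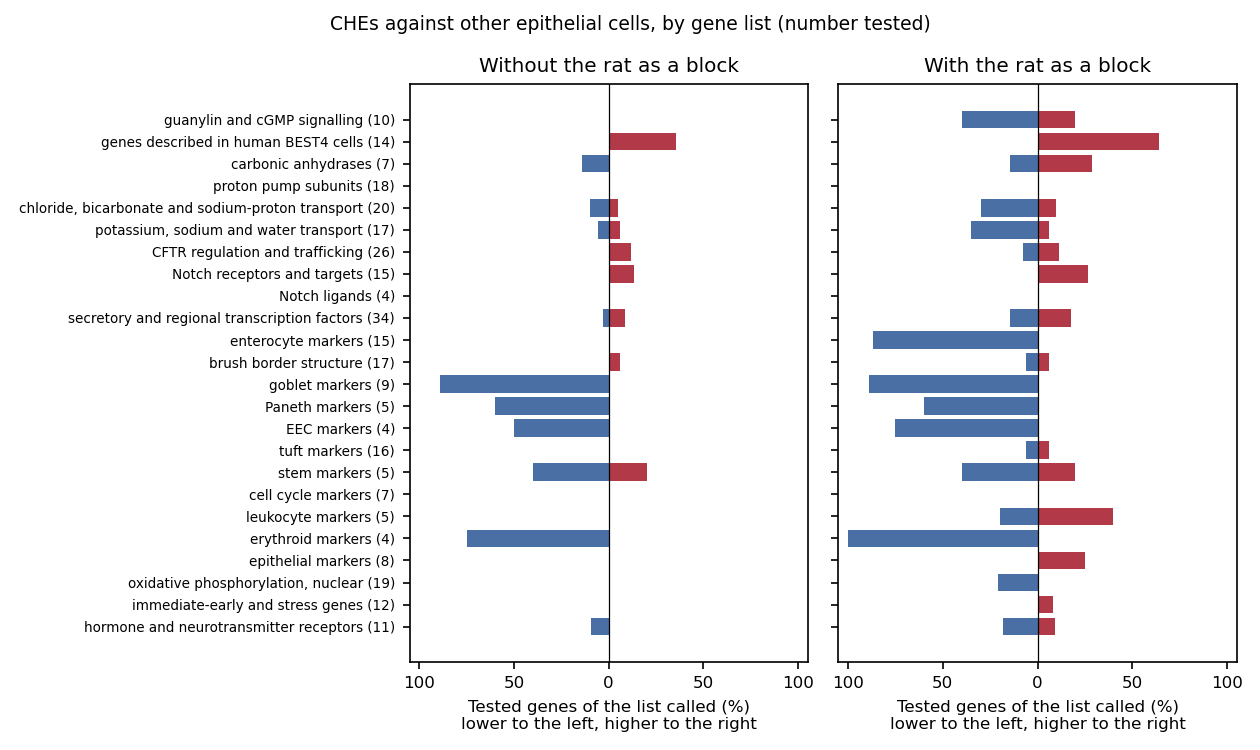
Share of the tested genes of each list that were called in CHEs against other epithelial cells, with lower genes to the left and higher genes to the right of 0, without the rat as a block (left panel) and with it (right panel); the number tested stands after each name. Goblet, Paneth, EEC and erythroid markers have bars to the left only in both panels, while enterocyte markers have a bar only with the block, where 13 of 15 were lower.

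Markers of other lineages were mostly low in CHEs. Of 9 tested goblet markers 8 fell and 0 rose, with a median log2 fold change of -6.41, or -4.66 with Spink4 at its limit. The comparison cells include goblet-marker cells, in which the list summed to 14.7% and 31.5% of UMIs. In CHEs it summed to 0.0954% and 0.153%, against 0.182% and 0.281% in enterocyte-marker cells and 0.0870% and 0.221% in tuft-marker cells. Agr2, a protein folding enzyme of mucus cells, had 1 and 14 UMIs in CHEs against 1402 and 1158 CPM in the other cells (-6.42 ± 0.98, adjusted p = 0.000569). Zg16, a mucus lectin, was at 63.6 and 86.1 CPM against 1783 and 10204 CPM, a level near that of enterocyte-marker cells (107 and 84.0 CPM). Spink4, a goblet protease inhibitor, had 0 UMIs, at least 24.0-fold lower in rat 2 and at least 1.75-fold lower in rat 1. Clca1 had 0 and 2 UMIs, a ratio of 230 in rat 2 (exact interval 63.6 to 1897).

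Of 5 tested Paneth markers Lyz2, Defa24 and Itln1 fell, and of 4 tested enteroendocrine (EEC) markers Chga and Chgb, which have 0 to 2 UMIs in the CHEs of each rat, with Tph1 added by the block. The Paneth list summed to 0.00636% and 0.00117% of UMIs in CHEs, against 0.0101% and 0.000503% in enterocyte-marker cells. For the EEC list the sums were 0% and 0.000425% in CHEs, against 0.000372% and 0.000262% in enterocyte-marker cells. The gut hormone Gip had 0 and 2 UMIs and the receptor partner Ramp1 0 and 1. After thinning, Ramp1 was in 87.7% of goblet-marker cells of rat 1 and in 2.37% of its enterocyte-marker cells. Of 5 tested stem markers Slc12a2 and Olfm4 fell and Gkn3 rose. Olfm4 had 0 UMIs, at least 4.84-fold and 4.35-fold lower than the other cells. Lgr5 and Ascl2 had 0 UMIs as well, but these counts set no bound in either rat. In the other cells Lgr5 stood at only 1.00 and 0.419 CPM and Ascl2 at 6.93 and 1.45 CPM. Of 7 cell cycle markers 0 passed. In rat 1, 3 of 6 members had a UMI of none of the 6 cycling markers, 2 of 1, and 1 of 2, and in rat 2, 53 of 64 had none, 10 had 1 and 1 had 4.

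Enterocyte markers were low but not absent. The 15 listed genes had a median log2 fold change of -2.10, with 0 called without the block and 13 lower with it. Alpi, the brush border alkaline phosphatase, stood at 127 and 155 CPM in CHEs against 398 and 1845 CPM (-3.11 ± 0.91, adjusted p = 0.0805, and 7.76e-05 with the block). Its level in the CHE sums came from few members. In rat 1, 2 of 6 members had an Alpi UMI. In rat 2 the highest members had 24.3 and 21.0 per 10000 UMIs, and the rest at most 3.90. Summed over the list, the median member had 0.626% of UMIs in rat 1 and 0.215% in rat 2, the highest members 6.45% and 11.7%, and the median enterocyte-marker cell 14.6% and 9.89%. The enterocyte rule was met by 2 members of rat 1 and 4 of rat 2. Keratins stayed on: Krt20, of mature villus cells, was at 6183 and 9134 CPM against 2084 and 2399 CPM (1.73 ± 0.98, adjusted p = 0.443), and of 8 epithelial markers 0 passed without the block and Krt18 and Krt19 were higher with it. Of 17 tested genes of the brush border list, the only higher one was Tubb2a, a tubulin and not a microvillus protein. In this list 0 were lower, and with the block Cobl was lower. Of 19 tested nuclear genes of oxidative phosphorylation 0 passed, and 4 were lower with the block (median -1.11). Of 12 tested immediate-early and stress genes 0 passed and Ier2 was higher with the block. Of 11 tested hormone and neurotransmitter receptors Ramp1, mostly a goblet gene here, was lower and 0 were higher, and with the block Chrm3 was higher and Lpar1 lower as well.

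Erythroid markers fell, 3 of 4 tested, and all 4 with the block. Hbb had 0 and 19 UMIs in CHEs against 139 and 2433 CPM. Once barcodes with at least 1% of UMIs in hemoglobin genes were left out, a choice made after seeing the data, the log2 fold changes of Hba-a1, Hba-a2, Hbb and LOC103694857 lay between 0.046 and 0.84.

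Set against tuft-marker cells (12 and 71 cells), 301 of 8043 genes differed (3.74%), 160 higher (1.99%) and 141 lower (1.75%), and 813 with the block (10.1%), 416 higher (5.17%) and 397 lower (4.94%). Beside Guca2b (11.10 ± 1.32) and Notch2, CHEs had more Krt20 (5.68 ± 1.02, adjusted p = 0.013) and less of the tuft factors Pou2f3 (8.50 CPM in rat 2 and 0 in rat 1 against 328 and 160 CPM, -4.73 ± 0.85, adjusted p = 0.0145) and Sox9 (38.2 and 9.56 against 284 and 709 CPM, adjusted p = 0.011). Tuft markers summed to 0.00382% of UMIs in the CHEs of rat 1 and 0.0536% in rat 2, against 0.587% and 1.69% in tuft-marker cells. In rat 2, 11 of 64 members also met the tuft rule, at least 2 of its 5 markers with a UMI, and without all members that met another class rule 323 genes passed. Rac2, at 160 and 763 CPM in tuft-marker cells, did not pass (0.04, adjusted p = 1). Of 16 tested tuft markers 0 passed against the other epithelial cells, and with the block Gfi1b was higher and Alox5ap lower. When only these classes were fitted, 72 genes passed.

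Against goblet-marker cells (212 and 131 cells) 305 of 8040 genes differed (3.79%), 158 higher (1.97%) and 147 lower (1.83%), and 855 with the block (10.6%), 364 higher (4.53%) and 491 lower (6.11%). Guca2a, Lypd8, Ctse, Kcnk1, Sptssb and Tmprss7, all detected in goblet-marker cells as well, did not pass. Their detection there after thinning ranged in rat 1 from 12.7% of cells for Ctse to 99.1% for Lypd8. Against enterocyte-marker cells (3034 and 1048 cells) 538 of 8042 genes differed (6.69%), 378 higher (4.70%) and 160 lower (1.99%), and 1192 with the block (14.8%), 598 higher (7.44%) and 594 lower (7.39%). Krt18, a keratin also abundant in tuft-marker and goblet-marker cells (789 and 2845 CPM against 32.1 and 15.4 CPM, adjusted p = 0.00237) and Hepacam2 (102 and 183 against 2.52 and 0.790 CPM) were among the higher ones, and Slc9a2 and Slc26a6 among the lower. The genes of each class rule were left out of its own comparison. Without the CHE sum of rat 2 the counts against tuft-marker, goblet-marker and enterocyte-marker cells were 3, 0 and 33. Without the tuft sum of rat 2 the first was 0 (1251 at an unadjusted p under 0.05), and without the CHE sum of rat 1 it was 189. Without the goblet sum of rat 2 the second was 132, and without the enterocyte sum of rat 1 or rat 2 the third was 290 or 274.

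Members of rat 2 were not alike. Over its 64 members, Spearman's rho between Guca2b and Stfa3 was 0.43, between Guca2b and Guca2a 0.38 and between Guca2b and Reg1a 0.03. Guca2b ran against the mitochondrial share (rho -0.57), as did Lypd8 (-0.69) and Stfa3 (-0.49), and Spib ran against the UMI total (-0.42). These values share 1 library and each cell's own total, so they are a description. Fabp1, a lipid carrier of enterocytes, ranged from 0 to 308 per 10000 UMIs and ran against Lypd8 (-0.44) and Stfa3 (-0.42).

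Several higher genes lie side by side in the genome. Of the 162 genes called higher and the 3 rule genes, 150 were found by symbol in the RefSeq table (GRCr8), and 7 neighbouring pairs were both in the set. In 4 pairs a rule gene or its relative is involved: Asz1 lies beside Cftr, Plk3 beside Best4, Otop3 beside Otop2, and Hid1 beside Otop3. The others are Spib with Pold1, Gpr6 with Fig4, and Casp4 with Casp12. Asz1, known from germ cells, had 24 and 131 UMIs in CHEs beside 127 and 2559 of Cftr, and Pold1, a DNA polymerase subunit, 21 and 266 beside 41 and 1734 of Spib. Whether such UMIs came from the neighbour's transcript was not tested.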

How the data were processed

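The deposited matrices hold raw UMI counts per gene and barcode, which the authors made with Cell Ranger against rn6 (the methods name v5.0, the headers differ as given above). The 10x 3′ reads were counted per molecule. No column of another sample was present. The counts were filtered to 32883 genes and the retained barcodes, and summed per rat and class. Of the genes, 4255 share a symbol and were kept apart by identifier.

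Sums were tested with edgeR 4.0.16 in R 4.3.3 (TMM, default low-count filter, quasi-likelihood test, Benjamini-Hochberg over all genes, 0.05). The main fit held 4 sums, and the fit of marker classes 12 sums over CHEs and 5 classes (tuft, EEC, goblet, cycling, enterocyte), each defined by its markers among the other epithelial cells. Tuft-marker cells had UMIs of at least 2 of Dclk1, Trpm5, Gfi1b, Il25 and Avil, goblet-marker cells at least 1% of UMIs in Tff3, Agr2, AABR07006030.1, Fcgbp, Clca1 and Spink4, and enterocyte-marker cells an Alpi UMI and at least 1% in Apoa1, Apoa4 and Fabp1. EEC-marker cells had UMIs of at least 2 of Chga, Chgb, Tph1, Tac1 and Neurog3 and at least 5 UMIs over them, and cycling-marker cells UMIs of at least 3 of 6 cycling markers. Rats give n = 2, and errors are standard errors of the fit. The CHE and comparison sums of a rat come from 1 library. Over genes, their differences between the rats correlated weakly (r = 0.209, and 0.0780 to 0.484 over 15 class pairs). This correlation cannot tell animal from library. In simulated counts of the main comparison, 29 of 194 genes changed by 3 on the log2 scale were recovered over 10177 genes, with 0 false calls. Genes that could be named are those of 26 lists, the 20 leading higher genes with at least 10 UMIs in each CHE sum and the 10 leading lower genes with at least 50 CPM in each comparison sum, called and alike in direction in both rats. The members and lists were chosen with earlier results of these data known. Intervals and limits of 3 counts cover counting error only. Alternatives were DESeq2 1.42.0, other size factors, no filter, other cell filters and member rules, doublet removal, thinning and left-out sums.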

Additional observations from a re-analysis of the deposited data

Results flagged for a closer look

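In rat 2, 10 barcodes outside the cell filters met the rule on Best4, Otop2 and Cftr, and 0 did in rat 1. They took no part in any comparison. Of the 10, 7 had 5000 UMIs or fewer and 3 had over 40% mitochondrial UMIs, with totals from 1364 to 23177 UMIs. Guca2b stood at 65453 CPM over them, against 138029 CPM in the members of rat 2 and 2301 CPM in its other epithelial cells, and took from 0.0779% to 15.3% of a barcode's UMIs.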

How the results depend on the processing

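Against the other epithelial cells 223 genes passed. The count was 520 without the low-count filter (268 higher, 252 lower), 1065 with the rat as a block, 77 at a mitochondrial limit of 20% (48 and 29; 70 of the 223), 731 under a stricter member rule (299 and 432), 336 after thinning (137 and 199), 714 without members that met another class rule (269 and 445) and 433 in the fit over all classes (381 and 52). Leaving out 1 sum gave 11 to 381, the lowest without CHEs of rat 2 (515 at an unadjusted p under 0.05) and the highest without the comparison cells of rat 2. It was 241 with DESeq2 (166 and 75). Against tuft-marker cells, where 301 passed, it was 525 with DESeq2, 723 without the filter, 813 with the block, 508 at the 20% limit and 72 with only these classes fitted, and 0 to 303 with 1 sum left out. Against goblet-marker cells, where 305 passed, it was 504, 725 and 855 for the first 3 of these, 134 with only these classes, and 0 to 234 with 1 sum left out (799 at an unadjusted p under 0.05 where 0). Against enterocyte-marker cells, where 538 passed, it was 1366 without the filter, 1192 with the block, and 33 to 671 with 1 sum left out.

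The share of CHEs in rat 2 was 9.95% at the 20% limit. Of the 30 leading genes 19 passed at that limit, and 10 to 29 with 1 sum left out. Without hemoglobin-rich barcodes the Hba-a1 log2 fold change was 0.046, the Hba-a2 log2 fold change 0.37, the Hbb log2 fold change 0.84 and the LOC103694857 log2 fold change 0.12. With 1 sum or rat left out, the Otop3 log2 fold change ranged from -7.14 to 8.06 and the Notch1 log2 fold change from -0.30 to 4.55. The alternatives were followed for 61 genes, the 30 leading genes, the called genes of the lists and 6 others (Guca2a, Guca2b, Hes1, Notch1, Car4 and Lypd8). Of their 1340 values, 1152 kept direction and side of the threshold, 153 lost the call, 28 gained it and 7 turned. The causes were not tested. Removing members or hemoglobin-rich barcodes and leaving out single sums were chosen after seeing the data, and a lone sum was assumed to vary like the other classes. With 70 members in 2 rats, low counts in rat 1 limit what could be detected.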
